A study of Homo sapiens with 18 samples.

Results

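The 36 genes described here encode the autophagy machinery, lysosomal membrane proteins and enzymes, the vacuolar proton pump and the transcription factors TFEB and TFE3. They were chosen by name, with earlier results of these data known, so their counts are a description. Each is represented by its brightest probe set among the 22465 genes measured. RNA was measured on 18 whole-transcriptome arrays from cultured human tumour cells of plasma cell origin, the line KMS12-BM, labelled multiple myeloma, and the line JJN3, labelled plasma cell leukemia. Amiloride, a diuretic that blocks the epithelial sodium channel, had a dose of 0.1 mM in KMS12-BM and of 0.4 mM in JJN3. TG003, an inhibitor of the CLK kinases that phosphorylate splicing factors, was given at 0.4 mM to both lines, and DMSO was the solvent control. All exposures lasted 24 h and each of the 6 groups has 3 arrays. Neither drug was given at more than 1 concentration in a line, so line and amiloride dose cannot be told apart in any comparison of the lines' amiloride responses. The growth protocol also gives KMS12 cells more serum than JJN3 cells, so line and serum cannot be told apart in any comparison of the lines. Nothing in the labels tells separate cultures from repeat arrays of 1 culture, so the spread behind the p-values may be technical.

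In autophagy, a kinase complex around ULK1 and a lipid kinase complex around BECN1 start a membrane sac, which grows by lipid supply and by coupling of ATG8 proteins such as MAP1LC3B to lipid. The closed autophagosome fuses with the lysosome, whose proton pump keeps its lumen acidic for the hydrolases. TFEB and TFE3 bind short E-box sequences near many of these genes in human cells. Plasma cells secrete large amounts of immunoglobulin, and autophagy is known to limit their endoplasmic reticulum and to sustain their survival.

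The E-box CACGTG, which reads the same on both strands, was searched in windows reaching from 250 bases before to 50 bases after the gene start in the RefSeq promoter table of GRCh38.p14. Of the 36 genes, 28 matched the table, and UVRAG, LAMP2, CTSB, HEXA, PSAP, ATP6V1H, ATP6V1A and ATP6V1B2 are named only. CACGTG stood in the windows of 8 of the 28, which is 28.6%, against 24.5% of 106 other genes of the pathway, 10.5% of all 15247 measured genes with a window and 8.77% of all 27305 genes in the table. A match describes the letters of the window and is not evidence of binding. All 8 genes are shown, whatever their response. Of them, ATG3, NEU1, LAMP1, ATG14, ATP6V0D1 and CTSA rose under amiloride in KMS12-BM, whereas CTSD and MCOLN1 did not pass the test there. Each stretch reads 5′ to 3′ on the gene's strand and ends at or before the gene start, with CACGTG in capitals.
ATG14: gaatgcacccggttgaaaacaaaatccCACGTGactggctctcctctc
ATG3: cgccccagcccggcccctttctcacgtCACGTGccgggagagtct
ATP6V0D1: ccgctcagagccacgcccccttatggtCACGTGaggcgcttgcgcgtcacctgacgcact
NEU1: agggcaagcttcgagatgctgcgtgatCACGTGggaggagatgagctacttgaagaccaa
CTSD: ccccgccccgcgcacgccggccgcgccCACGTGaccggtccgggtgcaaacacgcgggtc
CTSA: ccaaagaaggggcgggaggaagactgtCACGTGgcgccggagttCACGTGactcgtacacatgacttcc
MCOLN1: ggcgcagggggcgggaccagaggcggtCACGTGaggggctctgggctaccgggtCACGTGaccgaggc
LAMP1: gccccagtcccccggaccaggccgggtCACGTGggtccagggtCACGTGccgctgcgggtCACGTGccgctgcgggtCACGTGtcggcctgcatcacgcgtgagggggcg

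On the minus strand, the stretches lie at chr14:55411831-55411878 for ATG14, chr3:112561963-112562007 for ATG3, chr16:67481184-67481243 for ATP6V0D1, chr6:31862915-31862974 for NEU1 and chr11:1763942-1764001 for CTSD. On the plus strand they lie at chr20:45891266-45891334 for CTSA, chr19:7522556-7522623 for MCOLN1 and chr13:113297020-113297129 for LAMP1. The LAMP1 window held 6 copies of CACGTG in all, 4 of them in the stretch shown, and the CTSA and MCOLN1 windows held 2 copies each, all shown. The ATG3 window held 2 copies, 1 of them in the stretch shown. In ATG14 the 1 copy ended 15 bases before the gene start.

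Values are log2 expression. A change is the difference of 2 group means, given ± SE as fitted by limma, with n = 3 arrays a group. A gene was called where its p-value, adjusted over all 22465 genes, was under 0.05. Within groups the arrays correlated at r of 0.9955 to 0.9984 across genes. The cell line field of KMS12-BM amiloride array 3 reads JJN3. Its other labels give KMS12-BM, its r was 0.998 with its own group and 0.932 with amiloride-treated JJN3, and its CCND1 level was 14.84, as in KMS12-BM. Of 8 plasma cell markers, 6 lay above the background reference of 6.99 in each group except JJN3 TG003, where 4 did. The defining markers of T and NK cells, myeloid cells, stromal and endothelial cells and erythroid cells lay below it in every group, 0 of 26 measured. The reference is the upper range of the ERCC control probe sets, and the sources used here do not state that spike-in RNA was added. Of the 36 genes, 29 lay above it in at least 1 group, while ULK1, ATG2A, ATG7, ATG16L1, GABARAPL1, TFEB and CTSL lay below it in all 6 groups.

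Amiloride at 0.1 mM raised 19 of the 36 genes in KMS12-BM and lowered 4, with a median change of 0.32, against -0.02 over all genes. Among all genes, 30.6% were called, 17.0% higher and 13.6% lower. Of the 8315 genes above the background reference, 60.2% were called, 2992 higher and 2016 lower, and of the 29 members above it 18 were higher and 3 lower. The rises covered both initiation kinase genes, all 3 lipid kinase genes, 3 of 5 conjugation genes, 3 of 4 genes for ATG8 proteins and their cargo receptor, 2 of 3 membrane proteins, 3 of 5 proton pump genes and 2 of 9 hydrolase genes. In bulk RNA, a change in the share of cells expressing a gene and a change in RNA per cell cannot be told apart. The map of changes by gene and comparison shows most of its strong colour in this column.

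**Figure D1:**
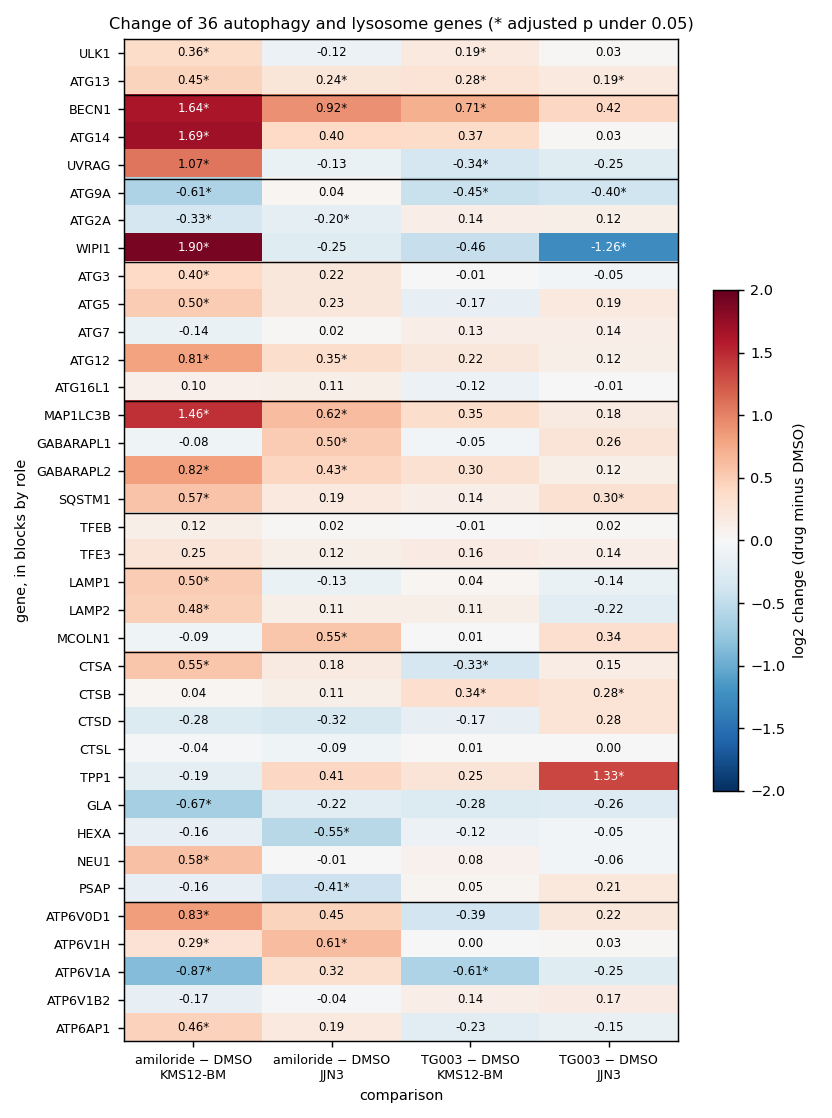
Log2 change (drug minus DMSO, colour and number) of the 36 genes in rows, in blocks by role, for amiloride and TG003 in KMS12-BM and JJN3 in columns, with an asterisk at an adjusted p under 0.05. Amiloride in KMS12-BM has 19 called rises and 4 called falls, with WIPI1 at 1.90 and ATP6V1A at -0.87 as the extremes.

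All 3 member genes of the lipid kinase complexes, which mark the site of the new membrane, rose in KMS12-BM. BECN1, its scaffold subunit, measured 11.99, 12.39 and 12.25 under amiloride, against 10.46, 10.77 and 10.47 in DMSO. All amiloride arrays lay above all DMSO arrays, and the change was 1.64 ± 0.14, or 3.12-fold (adjusted p = 1.6e-07). ATG14, the subunit that directs the complex to autophagosome formation, measured 8.35, 9.03 and 8.99 under amiloride, against 7.08, 7.12 and 7.09 in DMSO. Its DMSO arrays were nearly identical and just above the background reference, the first amiloride array was the lowest of its group, and the change was 1.69 ± 0.16 (adjusted p = 5.7e-07). UVRAG, the subunit that takes the place of ATG14 in a complex acting on endosomes, measured 11.71, 11.95 and 11.98 under amiloride, against 10.90, 10.78 and 10.75 in DMSO. The groups did not overlap, and the change was 1.07 ± 0.09 (adjusted p = 1.2e-07).

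**Figure D2:**
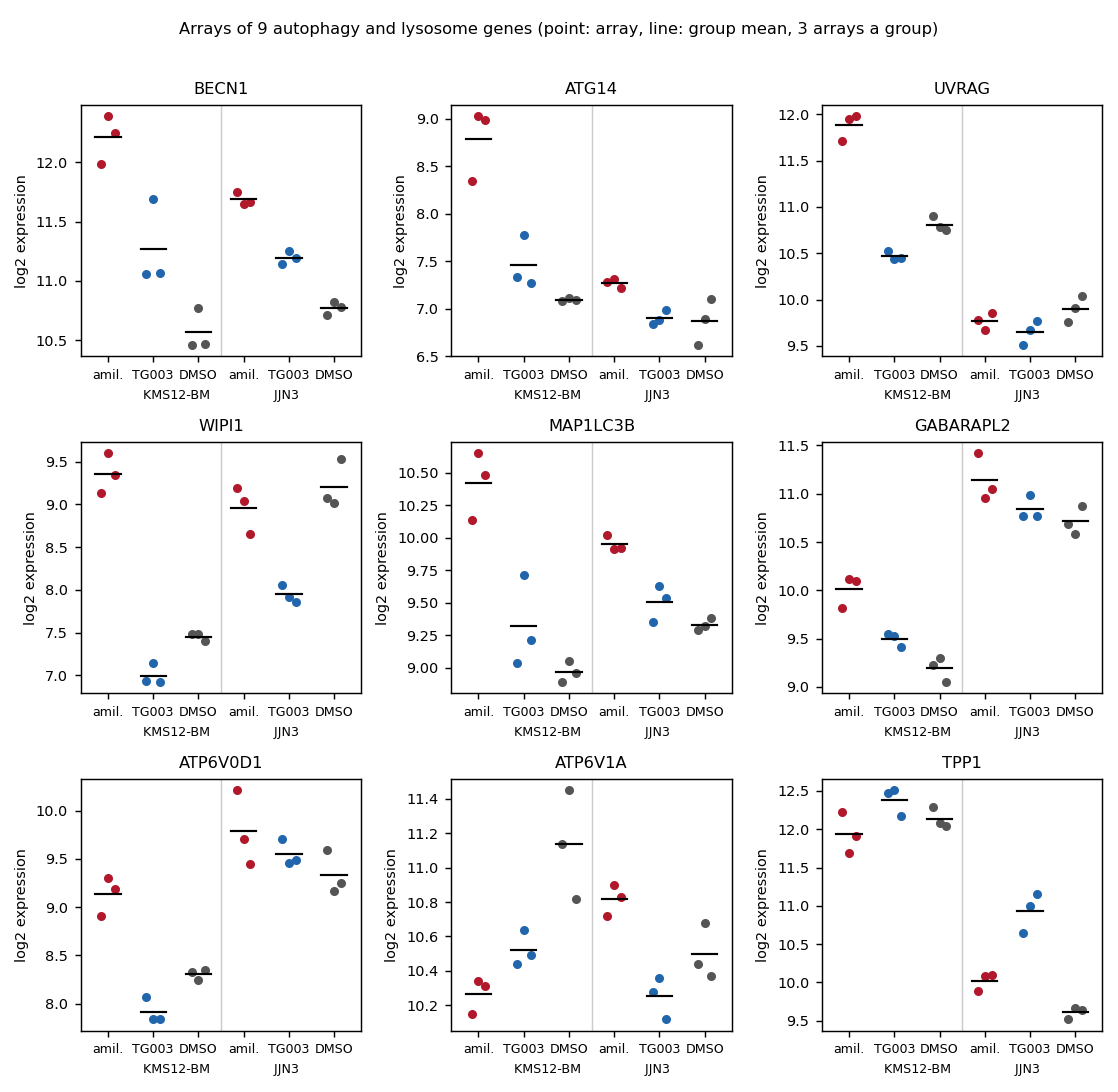
Log2 expression of 9 genes on each array (points) with the group mean (line), 3 arrays a group, for amiloride (amil.), TG003 and DMSO in KMS12-BM and JJN3; each panel has its own vertical range. BECN1, ATG14, UVRAG, WIPI1, MAP1LC3B, GABARAPL2 and ATP6V0D1 are above DMSO on every amiloride array of KMS12-BM, ATP6V1A is below it, and TPP1 is above DMSO on every TG003 array of JJN3.

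Upstream of it, ULK1, the kinase that starts the process, measured 5.88, 6.03 and 6.01 under amiloride, against 5.59, 5.62 and 5.65 in DMSO. The groups were apart (0.36 ± 0.05, adjusted p = 5.8e-05), but all 6 values lay below the background reference. ATG13, the partner of ULK1, rose by 0.45 ± 0.05 to 11.76, 11.86 and 11.82, against 11.32, 11.41 and 11.36 in DMSO (adjusted p = 4.8e-06). The 3 genes that supply lipid to the growing sac did not move together. WIPI1, which binds the lipid made by the BECN1 complex, measured 9.13, 9.60 and 9.34 under amiloride, against 7.48, 7.48 and 7.40 in DMSO. This was the largest change of the 36 genes in this comparison, 1.90 ± 0.15 or 3.74-fold (adjusted p = 6.3e-08), with no overlap. ATG9A, the transmembrane lipid scramblase carried on vesicles, measured 7.86, 7.75 and 7.74 under amiloride, against 8.43, 8.23 and 8.50 in DMSO. ATG9A thus fell by 0.61 ± 0.12 (adjusted p = 0.00055), with every amiloride array below every DMSO array. ATG2A, which transfers lipid into the sac, fell by 0.33 ± 0.05 (adjusted p = 4.4e-05), with all of its values below the background reference.

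Among the conjugation genes, ATG12 measured 8.29, 8.56 and 8.56 under amiloride, against 7.57, 7.90 and 7.50 in DMSO. ATG12 encodes the ubiquitin-like protein that is joined to ATG5, and it rose by 0.81 ± 0.11 (adjusted p = 2.4e-05), without overlap. ATG5 rose by 0.50 ± 0.09 (adjusted p = 0.00021) and ATG3, the enzyme that passes ATG8 proteins to lipid, by 0.40 ± 0.09 (adjusted p = 0.0020). ATG7, the activating enzyme, changed by -0.14 ± 0.07 and ATG16L1 by 0.10 ± 0.05, and neither was called. MAP1LC3B, the ATG8 protein most used as an autophagosome marker, measured 10.14, 10.65 and 10.48 under amiloride, against 8.89, 9.05 and 8.96 in DMSO. Its lowest amiloride array was about a whole log2 unit above its highest DMSO array, and the change was 1.46 ± 0.14 (adjusted p = 7.3e-07). GABARAPL2, another ATG8 protein, rose by 0.82 ± 0.12 to 9.82, 10.12 and 10.10, against 9.23, 9.30 and 9.05 in DMSO (adjusted p = 4.3e-05). SQSTM1, the cargo receptor that autophagy itself degrades at the protein level, rose by 0.57 ± 0.08 (adjusted p = 3.2e-05). GABARAPL1 stayed between 4.37 and 4.56 on all 6 arrays, below the background reference.

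At the lysosome, LAMP1, an abundant glycoprotein of its membrane, measured 11.02, 11.21 and 11.08 under amiloride, against 10.69, 10.51 and 10.61 in DMSO (0.50 ± 0.11, adjusted p = 0.0024). LAMP2 rose by 0.48 ± 0.11 (adjusted p = 0.0026), and in both genes the groups did not overlap. MCOLN1, the calcium-releasing channel of the lysosome, was below the background reference on all 6 arrays and was not called (-0.09 ± 0.13). Of the enzymes, CTSA, which protects the sialidase NEU1, measured 13.40, 13.53 and 13.45 under amiloride, against 12.93, 12.87 and 12.94 in DMSO (0.55 ± 0.10, adjusted p = 0.00025). NEU1 itself rose by 0.58 ± 0.12 (adjusted p = 0.00093), although all 6 values, 6.04 to 6.72, lay below the background reference. GLA, the alpha-galactosidase, moved the other way, with 8.21, 8.55 and 8.24 under amiloride, against 9.01, 9.11 and 8.87 in DMSO (-0.67 ± 0.10, adjusted p = 3.9e-05). The other 6 hydrolase and activator genes changed by -0.28 to 0.04 and were not called.

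The proton pump genes split. ATP6V0D1, a subunit of the membrane sector, measured 8.91, 9.30 and 9.19 under amiloride, against 8.33, 8.24 and 8.35 in DMSO (0.83 ± 0.16, adjusted p = 0.00061). ATP6V1A, the catalytic subunit that splits ATP, measured 10.15, 10.34 and 10.31 under amiloride, against 11.14, 11.45 and 10.82 in DMSO. ATP6V1A thus fell by 0.87 ± 0.13 (adjusted p = 4.8e-05), and the groups of neither gene overlapped. ATP6AP1, an accessory protein of pump assembly, rose by 0.46 ± 0.14 (adjusted p = 0.016), and the regulatory subunit gene ATP6V1H by 0.29 ± 0.10 (adjusted p = 0.037). The ATP6AP1 call ended without the second DMSO array (adjusted p = 0.061), without the second amiloride array (adjusted p = 0.068) and after a further quantile normalization (adjusted p = 0.12). That of ATP6V1H ended without the first or the third DMSO array or the second or the third amiloride array, with adjusted p-values of 0.13 to 0.16. The ATP6V1H call also ended after the quantile normalization (adjusted p = 0.25), with all probe sets tested (adjusted p = 0.07) and when only these 2 groups were fitted (adjusted p = 0.11). The other 17 rises and all 4 falls were called under every alternative in which the gene was tested. ULK1 and ATG2A, below the background reference in all groups, were not tested in the alternative over genes above it. TFEB and TFE3, the transcription factors, changed by 0.12 ± 0.06 and 0.25 ± 0.12 and were not called (adjusted p = 0.13 and 0.15). TFEB was called after the quantile normalization (0.16, adjusted p = 0.035), and TFE3 without the first amiloride array (0.37, adjusted p = 0.034). The quantile normalization also called falls of CTSD (-0.44, adjusted p = 0.047), HEXA (-0.27, adjusted p = 0.024) and ATP6V1B2 (-0.3, adjusted p = 0.0072). That quantile normalization gave 18 rises and 7 falls among the 36 genes and a median of 0.19. Of the 8 genes with CACGTG in the window, 6 rose and 0 fell, and of the 20 with a window lacking it, 10 rose and 3 fell, with medians of 0.53 and 0.30. Amiloride in JJN3 raised 1 of the 8 and 6 of the 20, with 0 and 1 lower. TG003 raised 0 of the 8 and 3 of the 20 in each line, and lowered 1 of the 8 and 1 of the 20 in KMS12-BM and 0 of the 8 and 2 of the 20 in JJN3. The same split over all genes was not counted, and a part of the motif in these changes was not tested.

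Other genes of the pathway, 122 measured in 7 lists, were read in the same fit. Under amiloride in KMS12-BM, 48 rose and 24 fell, with a median of 0.07. Of all genes 17.0% were higher and 13.6% lower, and of those above the background reference 60.2% were called in either direction. Of 22 other core autophagy genes, 14 rose and 3 fell, among them RB1CC1, the scaffold of the ULK1 complex (1.67 ± 0.10), and WDR45B, a relative of WIPI1 (1.45 ± 0.14). Of 11 other autophagy receptors, 7 rose and 0 fell, led by TAX1BP1 (1.85 ± 0.15) and NBR1 (1.76 ± 0.15), which both recognise ubiquitin-tagged cargo. Of 16 genes of nutrient sensing at the lysosome, 7 rose and 3 fell, including RRAGC (1.78 ± 0.16), a small GTPase that recruits the kinase complex of MTOR. Of 27 other lysosomal hydrolases, only 2 rose and 8 fell. The acid sphingomyelinase gene SMPD1 rose by 1.37 ± 0.13, while HGSNAT, an enzyme of heparan sulfate breakdown, fell by 2.35 ± 0.16 and CTSC, a protease that activates other proteases, fell by 1.30 ± 0.13. Of 12 fusion genes 5 rose and 2 fell, of 16 membrane and sorting genes 6 rose and 6 fell, and of 18 other proton pump genes 7 rose and 2 fell. The counts of the hydrolase list thus lie on the other side of those of the core and receptor lists. No test between the lists was run.

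**Figure D3:**
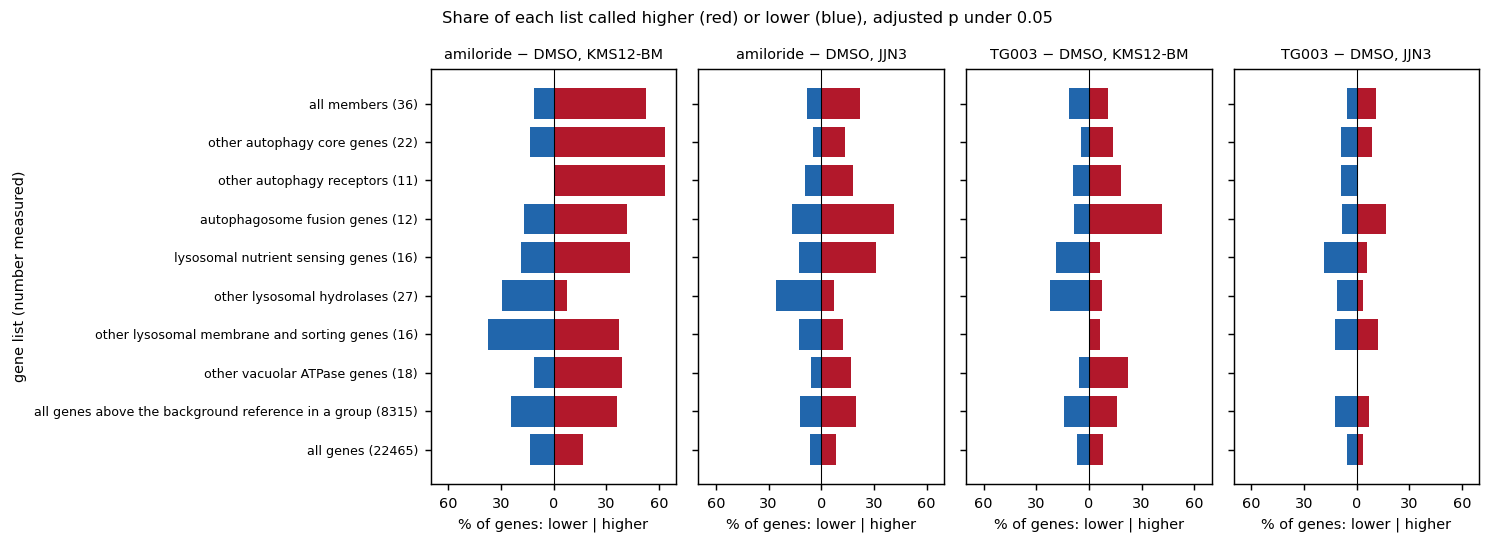
Percentage of each gene list called higher (red, to the right) or lower (blue, to the left) at an adjusted p under 0.05, in 4 panels for each drug against DMSO in each line, with the number of measured genes in brackets. In KMS12-BM under amiloride 52.8% of the 36 genes were higher, against 17.0% of all genes. Of the other hydrolases 29.6% were lower, against 13.6% of all genes. Among the 8315 genes above the background reference, 60.2% were called in either direction, so the share of all genes is a low mark for well-detected lists.

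In JJN3, amiloride at 0.4 mM raised 8 of the 36 genes and lowered 3, with a median of 0.12, against -0.02 over all genes. Among all genes, 14.8% were called, 8.65% higher and 6.12% lower, and among those above the background reference 32.3%, with 20.0% higher and 12.3% lower. The 22.2% of members called higher is taken over all 36, of which 7 lay below the reference in all groups. It is thus close in size to the 20.0% of well-detected genes, but not a like share. BECN1 measured 11.75, 11.65 and 11.67 under amiloride, against 10.71, 10.82 and 10.78 in DMSO, without overlap (0.92 ± 0.14, adjusted p = 0.00032). MAP1LC3B measured 10.02, 9.91 and 9.92 under amiloride, against 9.29, 9.32 and 9.38 in DMSO (0.62 ± 0.14, adjusted p = 0.0072). ATP6V1H measured 9.23, 9.05 and 9.12 under amiloride, against 8.44, 8.52 and 8.61 in DMSO (0.61 ± 0.10, adjusted p = 0.00059). In each of these 3 genes the lowest amiloride array was well above the highest DMSO array. ATG13 rose by 0.24 ± 0.05 (adjusted p = 0.0064), and HEXA, a subunit of the enzyme that degrades the ganglioside GM2, measured 8.27, 8.10 and 7.97 under amiloride, against 8.57, 8.53 and 8.87 in DMSO (-0.55 ± 0.10, adjusted p = 0.00090). These 5 calls held under every alternative run.

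The other 6 calls in JJN3 did not. GABARAPL1 measured 6.61, 6.63 and 6.64 under amiloride, against 5.97, 6.19 and 6.21 in DMSO, all below the background reference (0.50 ± 0.12, adjusted p = 0.0091), and it was not called without the first DMSO array (adjusted p = 0.051). ATG2A (-0.20 ± 0.05, adjusted p = 0.0099) was not called without the same array (adjusted p = 0.054). MCOLN1 measured 8.30, 8.19 and 7.62 under amiloride, against 7.64, 7.43 and 7.39 in DMSO (0.55 ± 0.13, adjusted p = 0.0084). On amiloride array 3 it lay within the DMSO range, and the call ended when only these 2 groups were fitted (adjusted p = 0.095). GABARAPL2 (0.43 ± 0.12, adjusted p = 0.022) was not called without the first or the second DMSO array or the first amiloride array, with adjusted p-values of 0.070 to 0.11. Nor was it called with all probe sets tested (adjusted p = 0.052) or when only these 2 groups were fitted (adjusted p = 0.09). The precursor of the lipid-degrading saposins, PSAP, fell by 0.41 ± 0.12 (adjusted p = 0.026), with adjusted p-values of 0.10 to 0.14 without the third DMSO array or the second or the third amiloride array. The PSAP call also ended with arrays centred on their medians (adjusted p = 0.051), with all probe sets tested (adjusted p = 0.062) and when only these 2 groups were fitted (adjusted p = 0.15). ATG12 (0.35 ± 0.11, adjusted p = 0.046) lost its call when any 1 of the 6 arrays was left out, with adjusted p-values of 0.051 to 0.19. The ATG12 call also ended with arrays centred on their medians (adjusted p = 0.057), with all probe sets tested (adjusted p = 0.1) and under a trended robust prior (adjusted p = 0.057). In the other direction, SQSTM1 was called higher without the third DMSO array (adjusted p = 0.043), ATP6V0D1 without the first DMSO array (adjusted p = 0.038) or the third amiloride array (adjusted p = 0.016), CTSA and ATP6AP1 without the third amiloride array (adjusted p = 0.025 in both), and CTSD lower without the first amiloride array (adjusted p = 0.045). TPP1 was called higher with arrays centred on their medians (0.44, adjusted p = 0.048), over genes above the background reference (0.41, adjusted p = 0.032) and when only these 2 groups were fitted (0.41, adjusted p = 0.016). ATP6V0D1 was also called over genes above the background reference (0.45, adjusted p = 0.034), and GLA lower after the quantile normalization (-0.30, adjusted p = 0.0079).

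WIPI1, ATG14 and UVRAG, which rose by more than 1 log2 unit in KMS12-BM, were not called in JJN3. WIPI1 measured 9.19, 9.04 and 8.65 under amiloride, against 9.07, 9.02 and 9.53 in DMSO, overlapping groups with a change of -0.25 ± 0.15 (adjusted p = 0.38). ATG14 measured 7.28, 7.31 and 7.22 under amiloride, against 6.62, 6.89 and 7.10 in DMSO (0.40 ± 0.16, adjusted p = 0.14). UVRAG changed by -0.13 ± 0.09. Of the 122 other pathway genes, 22 rose and 16 fell. Beside them, 8.65% of all genes were higher and 6.12% lower, and 32.3% of those above the background reference were called. The catalytic subunit of the BECN1 complex, PIK3C3, rose by 0.65 ± 0.08 and its scaffold PIK3R4 by 0.51 ± 0.08, OSTM1, which supports a lysosomal chloride transporter, by 0.92 ± 0.13, and the pump subunit gene ATP6V1C1 by 0.77 ± 0.11. The mitophagy receptor gene BNIP3L fell by 1.27 ± 0.14, the fusion gene VPS39 by 0.94 ± 0.07, the cysteine protease gene LGMN by 1.94 ± 0.21 and the beta-glucuronidase gene GUSB by 1.01 ± 0.13. Of the 27 other hydrolases, 2 rose and 7 fell.

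The difference between the lines in the amiloride response was tested as an interaction, JJN3 minus KMS12-BM. It was called for 15 of the 36 genes, 6 positive and 9 negative, with a median of -0.23, against 0.00 over all genes, where 18.5% were called, 8.68% positive and 9.78% negative. Among genes above the background reference 37.9% were called, 17.4% positive and 20.5% negative. The 9 negative genes had all risen in KMS12-BM. The same KMS12-BM arrays enter both values, so this overlap is partly built into the contrast, and its share over all genes was not counted. WIPI1 stood apart with -2.15 ± 0.21 (adjusted p = 4.3e-06), followed by ATG14 (-1.30 ± 0.23, adjusted p = 0.00080), UVRAG (-1.21 ± 0.13, adjusted p = 7.4e-06), MAP1LC3B (-0.83 ± 0.20, adjusted p = 0.0079), LAMP1 (-0.63 ± 0.16, adjusted p = 0.011) and ULK1 (-0.47 ± 0.08, adjusted p = 0.00034). ATP6V1A (1.19 ± 0.18, adjusted p = 0.00022) and ATG9A (0.64 ± 0.16, adjusted p = 0.011), which had fallen in KMS12-BM and were not called in JJN3, were the positive genes called under every alternative. In JJN3, ATP6V1A measured 10.72, 10.90 and 10.83 under amiloride, against 10.44, 10.68 and 10.37 in DMSO.

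**Figure D4:**
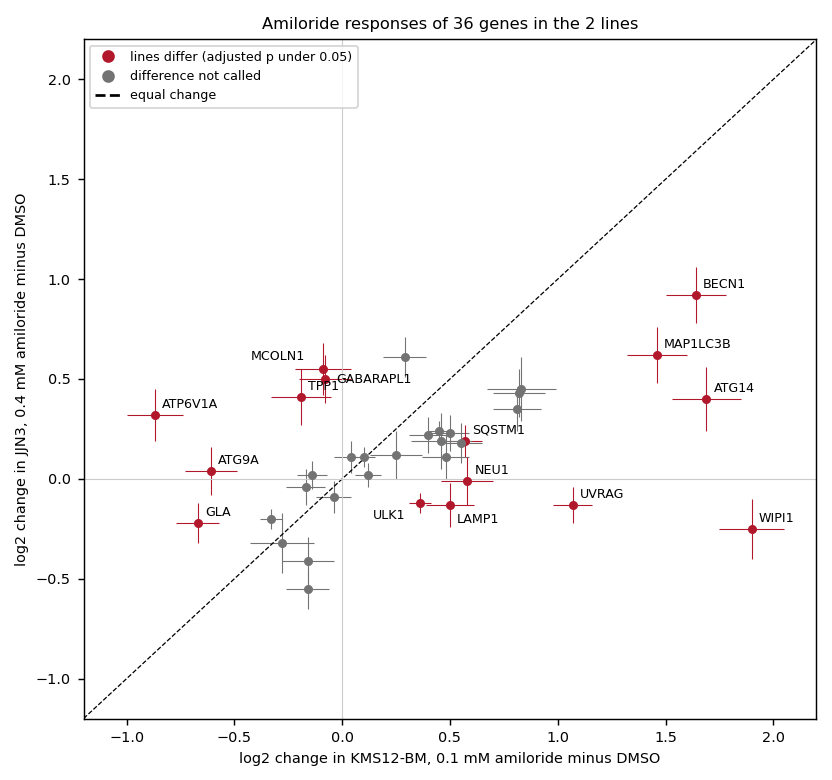
Log2 change of the 36 genes under amiloride minus DMSO in KMS12-BM at 0.1 mM (horizontal) and in JJN3 at 0.4 mM (vertical), with bars of ± SE and red points where the lines differed at an adjusted p under 0.05. WIPI1 lies at 1.90 in KMS12-BM and -0.25 in JJN3, and ATP6V1A at -0.87 and 0.32.

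The other 7 interaction calls were less firm. BECN1 (-0.73 ± 0.20, adjusted p = 0.017) rose in both lines, by less in JJN3, and reached an adjusted p of 0.050 without the second KMS12-BM amiloride array. NEU1 (-0.59 ± 0.16, adjusted p = 0.019) was not called without the second JJN3 amiloride array (adjusted p = 0.054). GABARAPL1 (0.58 ± 0.17, adjusted p = 0.025) lost its call without the first JJN3 DMSO array, the third KMS12-BM DMSO array or the second or the third KMS12-BM amiloride array, with adjusted p-values of 0.054 to 0.070. MCOLN1 (0.64 ± 0.18, adjusted p = 0.023) did so without the second or the third JJN3 DMSO array, the first or the second JJN3 amiloride array or the first KMS12-BM DMSO array, at 0.050 to 0.063. SQSTM1 (-0.37 ± 0.11, adjusted p = 0.031) was lost on leaving out any 1 of 6 of the 12 arrays (adjusted p of 0.054 to 0.086), namely the third DMSO and the second amiloride array of JJN3 and the second and the third DMSO and amiloride arrays of KMS12-BM. GLA (0.45 ± 0.14, adjusted p = 0.031) was lost for 8 of the 12, all but the third DMSO and the third amiloride array of JJN3 and the third DMSO and the second amiloride array of KMS12-BM (adjusted p of 0.052 to 0.083). TPP1 (0.61 ± 0.20, adjusted p = 0.047) was lost for 10 of the 12, all but the first amiloride array of each line (adjusted p of 0.054 to 0.13). For ATG12, ATG13 and GABARAPL2, which rose in both lines, the intervals of the difference were -0.79 to -0.12, -0.38 to -0.06 and -0.75 to -0.03, and none was called at adjusted p-values of 0.055, 0.059 and 0.14. ATP6V1H, which also rose in both lines, had a difference of the other sign, 0.32 with an interval of 0.02 to 0.62 (adjusted p = 0.16), and was called after the quantile normalization (0.40, adjusted p = 0.038). Leaving out single arrays brought ATG12 to 0.010 (second KMS12-BM DMSO), 0.023 (first KMS12-BM amiloride) and 0.042 (first JJN3 DMSO), ATG13 to 0.048 (first KMS12-BM amiloride) and 0.044 (the third JJN3 DMSO), and GABARAPL2 to 0.024 (first JJN3 amiloride). Leaving out that last array also brought in CTSA (adjusted p = 0.015), HEXA (adjusted p = 0.026) and ATP6V0D1 (adjusted p = 0.041). HEXA was called as well without the third KMS12-BM amiloride array (adjusted p = 0.041) or the second JJN3 DMSO array (adjusted p = 0.043), and ATG5 without the second KMS12-BM DMSO array (adjusted p = 0.031).

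TG003 at 0.4 mM left most of the 36 genes uncalled. In KMS12-BM 4 rose and 4 fell, with a median of 0.03, against a median of -0.01 over all genes, of which 14.8% were called, 8.30% higher and 6.52% lower. Among genes above the background reference 30.7% were called, 16.3% higher and 14.4% lower. Of the 8 plasma cell markers 5 fell as well, their log2 levels summing to 69.67 under TG003, against 76.14 in DMSO, and their part in the members' changes was not tested. ATP6V1A measured 10.44, 10.64 and 10.49 under TG003, against 11.14, 11.45 and 10.82 in DMSO, with every TG003 array below every DMSO array (-0.61 ± 0.13, adjusted p = 0.0035). ATG13 measured 11.60, 11.68 and 11.65 under TG003, against 11.32, 11.41 and 11.36 in DMSO (0.28 ± 0.05, adjusted p = 0.0018). These were the calls that held under every alternative. BECN1 measured 11.06, 11.69 and 11.07 under TG003, against 10.46, 10.77 and 10.47 in DMSO, with the second array of each group the highest (0.71 ± 0.14, adjusted p = 0.0024), and was not called when only these 2 groups were fitted (adjusted p = 0.052). CTSB, a cysteine protease, rose by 0.34 ± 0.08 (adjusted p = 0.012) and was not called without the third DMSO or the second TG003 array (adjusted p = 0.068 in both). ULK1 rose by 0.19 ± 0.05 (adjusted p = 0.023), a call lost without the first or the second DMSO array or the first or the second TG003 array (adjusted p of 0.053 to 0.094).

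Of the falls, ATG9A changed by -0.45 ± 0.12 (adjusted p = 0.014) and was not called without the first or the third DMSO array or the second TG003 array (adjusted p of 0.052 to 0.076). UVRAG measured 10.52, 10.44 and 10.45 under TG003, against 10.90, 10.78 and 10.75 in DMSO. The UVRAG groups did not overlap (-0.34 ± 0.09, adjusted p = 0.015), but without the first DMSO array or the second or the third TG003 array the adjusted p was 0.050 to 0.074. CTSA changed by -0.33 ± 0.10 (adjusted p = 0.027) and was lost without the first or the third DMSO array or the second or the third TG003 array (adjusted p of 0.058 to 0.13). It was also lost after the quantile normalization (adjusted p = 0.081) and with all probe sets tested (adjusted p = 0.054). With the replicate number as a block, which pairs these 2 groups, ATG2A (0.14, adjusted p = 0.049) and GLA (-0.28, adjusted p = 0.031) were called as well, giving 5 rises and 5 falls. GLA was also called lower after the quantile normalization (-0.33, adjusted p = 0.0041) and over genes above the background reference (-0.28, adjusted p = 0.049). The quantile normalization added ATG16L1 (-0.17, adjusted p = 0.029), and fitting only these 2 groups added ATP6V0D1 (-0.39, adjusted p = 0.023). WIPI1, not called, measured 6.93, 7.14 and 6.92 under TG003, against 7.48, 7.48 and 7.40 in DMSO, so the groups were apart near the background reference (-0.46 ± 0.15, adjusted p = 0.052). WIPI1 was called after the quantile normalization (adjusted p = 0.019), over genes above the background reference (adjusted p = 0.025) and when only these 2 groups were fitted (adjusted p = 0.013). MAP1LC3B was called without the first TG003 array (0.50, adjusted p = 0.034), ATG12 without the second DMSO array (0.35, adjusted p = 0.046), and ATG2A (0.18, adjusted p = 0.041) and GLA (-0.34, adjusted p = 0.048) without the third. Of the 122 other pathway genes 18 rose and 13 fell, beside 8.30% and 6.52% of all genes. Among genes above the background reference 30.7% were called. The pathway genes called included the membrane fusion gene SNAP29 (0.73 ± 0.12), the receptor gene NBR1 (0.75 ± 0.15), the amino acid sensor gene SLC38A9 (-0.60 ± 0.08) and the lysosomal mannosidase gene MAN2B1 (-0.82 ± 0.14).

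In JJN3, TG003 raised 4 of the 36 genes and lowered 2, with a median of 0.12, against a median of 0.02 over all genes, of which 9.38% were called, 3.74% higher and 5.64% lower. Among genes above the background reference 19.1% were called, 589 higher and 999 lower. With arrays centred on their medians 2 members were higher and 2 lower. Of the 8 plasma cell markers 4 fell, summing to 66.87 under TG003, against 72.11 in DMSO, and their part was not tested. TPP1, a protease that removes tripeptides from the ends of proteins in the lysosome, measured 10.64, 11.00 and 11.16 under TG003, against 9.52, 9.66 and 9.64 in DMSO. Every TG003 array was about a log2 unit or more above every DMSO array, and the change was 1.33 ± 0.14 or 2.51-fold (adjusted p = 2.2e-05). WIPI1 went down, with 8.06, 7.92 and 7.86 under TG003, against 9.07, 9.02 and 9.53 in DMSO, also without overlap (-1.26 ± 0.15, adjusted p = 5.7e-05). Both calls held under every alternative run.

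SQSTM1 (0.30 ± 0.08, adjusted p = 0.028), CTSB (0.28 ± 0.08, adjusted p = 0.045), ATG13 (0.19 ± 0.05, adjusted p = 0.030) and ATG9A (-0.40 ± 0.12, adjusted p = 0.039) were the other calls of TG003 in JJN3. Each ended on leaving out single arrays. For SQSTM1 these were the first or the second DMSO or TG003 array (adjusted p of 0.088 to 0.14), and for ATG13 the first or the third DMSO array or the first or the second TG003 array (adjusted p of 0.069 to 0.13). For CTSB it was any array but TG003 array 3 (adjusted p of 0.060 to 0.16), and for ATG9A any but DMSO array 2 (adjusted p of 0.064 to 0.14). With all probe sets tested, the adjusted p was 0.065 for SQSTM1, 0.095 for CTSB, 0.088 for ATG13 and 0.077 for ATG9A. Fitting only these 2 groups gave an adjusted p of 0.13 for SQSTM1, 0.14 for CTSB and 0.17 for ATG13. The replicate block, which pairs these groups, added BECN1 (0.42, adjusted p = 0.029). BECN1 was also called after the quantile normalization (0.45, adjusted p = 0.021) and over genes above the background reference (0.42, adjusted p = 0.042). Fitting only these 2 groups called it too (0.42, adjusted p = 0.011). The quantile normalization added MCOLN1 (0.39, adjusted p = 0.034) and GLA (-0.23, adjusted p = 0.044). GABARAPL1 was called without the third TG003 array (0.45, adjusted p = 0.0053). Of the 122 other pathway genes 8 rose and 12 fell, beside 3.74% and 5.64% of all genes. Among genes above the background reference 19.1% were called. The pathway genes called included PIK3C3 at 0.51 ± 0.08, the protease gene CTSS at -1.39 ± 0.12, the fusion gene VPS41 at -0.77 ± 0.12, and GNPTAB, the enzyme that tags hydrolases for the lysosome, at -1.12 ± 0.10.

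The lines differed in the TG003 response for 2 of the 36 genes, 1 in each direction, against 4.57% of all genes, 1.92% positive and 2.64% negative, and 9.66% of genes above the background reference. With arrays centred on their medians 1 was positive and 0 negative, and after the quantile normalization 2 were positive and 1 negative. The interaction for TPP1 was 1.08 ± 0.20 (adjusted p = 0.0059) and was called under every alternative. In KMS12-BM, TPP1 measured 12.48, 12.51 and 12.17 under TG003, against 12.29, 12.08 and 12.04 in DMSO, which overlap, so the rise in JJN3 brought its level nearer to that of KMS12-BM without reaching it. For WIPI1 the interaction was -0.81 ± 0.21 (adjusted p = 0.040), but it was lost on leaving out any 1 of 10 of the 12 arrays, all but the first and the second JJN3 DMSO array (adjusted p of 0.052 to 0.099). A second gene became positive without single arrays, namely CTSA without the second JJN3 TG003 array (0.54, adjusted p = 0.046) and GABARAPL1 without the third (0.50, adjusted p = 0.027). ATG9A, lower in both lines, had an interaction of 0.05 with an interval of -0.30 to 0.40, and ATG13, higher in both, of -0.09 with an interval of -0.25 to 0.07.

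Across the 4 comparisons with DMSO, ATG13 was called in all 4, always higher. BECN1 was called higher in 3 of them and ATG9A lower in 3. ATG16L1, ATG7, ATP6V1B2, CTSD, CTSL, TFE3 and TFEB were called in 0 of the 4, of which TFEB, ATG7, ATG16L1 and CTSL lay below the background reference throughout. Both comparisons within a line share their DMSO arrays, so their values stand side by side as a description. Over all genes, 30.6% and 14.8% were called under amiloride in KMS12-BM and JJN3, and 14.8% and 9.38% under TG003. The share of all genes called in several comparisons was not counted. Under TG003 in JJN3, the ATG13 call was lost in 9 of 14 alternatives and the ATG9A call in 7 of 14. In KMS12-BM under TG003, ATG9A was lost in 3 of 14 and BECN1 in 1 of 14.

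The drugs were also set against each other. In JJN3, where both were given at 0.4 mM, amiloride was higher than TG003 for 8 of the 36 genes and lower for 5, with a median of 0.04, against a median of -0.04 over all genes, of which 16.9% were called, 10.5% higher and 6.41% lower. Among genes above the background reference 34.6% were called. After the quantile normalization 4 members were higher and 7 lower. The count of higher members also fell to 3 without amiloride array 1, to 5 without amiloride array 2 and to 4 without TG003 array 1 or TG003 array 3. WIPI1 was higher by 1.02 ± 0.15 (adjusted p = 0.00018), with 9.19, 9.04 and 8.65 under amiloride, against 8.06, 7.92 and 7.86 under TG003. TPP1 was lower by 0.91 ± 0.14 (adjusted p = 0.00031), with 9.89, 10.08 and 10.09 under amiloride, against 10.64, 11.00 and 11.16 under TG003. Neither pair of groups overlapped. PSAP (-0.62 ± 0.12, adjusted p = 0.0016), HEXA (-0.50 ± 0.10, adjusted p = 0.0016), ATG2A (-0.32 ± 0.05, adjusted p = 0.00023), ATP6V1H (0.58 ± 0.10, adjusted p = 0.00077) and ATP6V1A (0.57 ± 0.13, adjusted p = 0.0054) also held under every alternative in which they were tested. ATG2A, below the background reference in all groups, was not tested in the alternative over genes above it. In KMS12-BM amiloride at 0.1 mM was higher than TG003 at 0.4 mM for 20 genes and lower for 6, beside 29.8% of all genes called, 15.8% higher and 14.0% lower, and 59.5% of those above the background reference. The median was 0.20, against -0.01 over all genes. The doses there differ, and no gene is compared. Whether the equal concentrations in JJN3 act with equal strength was not tested.

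The lines differed in DMSO for 23 of the 36 genes, where line and serum cannot be told apart. JJN3 was higher than KMS12-BM for 10 and lower for 13, 27.8% and 36.1%. Of all genes 41.2% were called, 18.9% higher and 22.3% lower, and of those above the background reference 73.9%, with 33.0% higher and 40.9% lower. The members' shares thus lie between those of all genes and of well-detected genes. They are taken over all 36, of which 7 lay below the reference in all groups. The ordered plot of differences runs from TPP1 to NEU1. TPP1 measured 9.52, 9.66 and 9.64 in JJN3, against 12.29, 12.08 and 12.04 in KMS12-BM, a difference of -2.53 ± 0.14 or 5.78-fold (adjusted p = 3.0e-10). NEU1 measured 8.01, 7.89 and 8.06 in JJN3, against 6.12, 6.07 and 6.04 in KMS12-BM, where it lay below the background reference (1.91 ± 0.12, adjusted p = 8.6e-10). CTSA, its protective partner, differed the other way, with 11.90, 11.82 and 11.99 in JJN3, against 12.93, 12.87 and 12.94 in KMS12-BM (-1.01 ± 0.10, adjusted p = 1.9e-07). None of these 3 genes had overlapping groups.

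**Figure D5:**
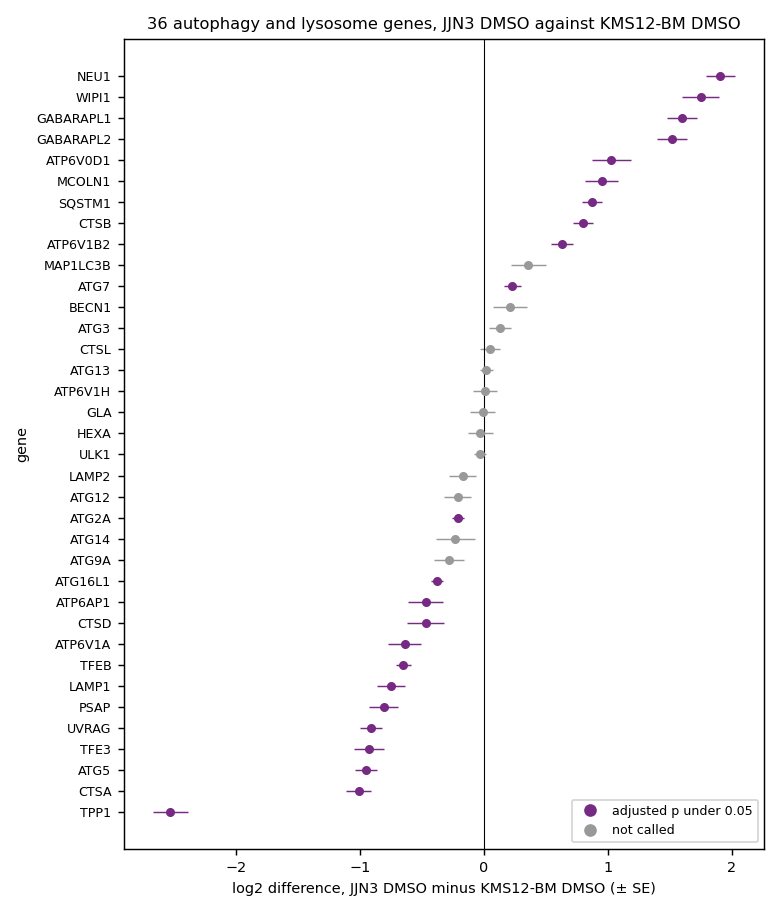
Log2 difference of JJN3 DMSO minus KMS12-BM DMSO for the 36 genes, ordered by size, with bars of ± SE and purple points at an adjusted p under 0.05. The differences run from -2.53 for TPP1 to 1.91 for NEU1, with 10 called higher and 13 called lower in JJN3.

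Of the ATG8 proteins, GABARAPL2 measured 10.69, 10.58 and 10.87 in JJN3, against 9.23, 9.30 and 9.05 in KMS12-BM (1.52 ± 0.12, adjusted p = 1.9e-08). GABARAPL1 was higher by 1.60 ± 0.12 (adjusted p = 1.1e-08) and SQSTM1 by 0.87 ± 0.08 (adjusted p = 1.3e-07), while MAP1LC3B, at 0.36 ± 0.14 (adjusted p = 0.055), was called with the replicate block (adjusted p = 0.021), after the quantile normalization (adjusted p = 0.0084), over genes above the background reference (adjusted p = 0.031) and when only these 2 groups were fitted (adjusted p = 0.0025). WIPI1 was higher in JJN3 by 1.75 ± 0.15 (adjusted p = 4.8e-08), with 9.07, 9.02 and 9.53 in JJN3, against 7.48, 7.48 and 7.40 in KMS12-BM. The level of WIPI1 in JJN3 DMSO was thus about that of KMS12-BM under amiloride, 9.13, 9.60 and 9.34. MCOLN1 (0.95 ± 0.13), CTSB (0.80 ± 0.08), ATP6V0D1 (1.03 ± 0.16) and ATP6V1B2 (0.63 ± 0.09), the nucleotide-binding partner of ATP6V1A, were higher in JJN3 as well. Both transcription factors were lower in JJN3. TFE3 measured 7.56, 7.62 and 7.71 in JJN3, against 8.75, 8.33 and 8.61 in KMS12-BM (-0.93 ± 0.12, adjusted p = 7.6e-06), and TFEB differed by -0.65 ± 0.06 (adjusted p = 8.7e-08), below the background reference in both lines.

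Also lower in JJN3 were ATG5 (-0.95 ± 0.09, adjusted p = 9.2e-08), UVRAG (-0.91 ± 0.09, adjusted p = 2.5e-07), PSAP (-0.81 ± 0.12, adjusted p = 2.4e-05), LAMP1 (-0.75 ± 0.11, adjusted p = 3.5e-05), ATP6V1A (-0.64 ± 0.13, adjusted p = 0.00055), ATG16L1 (-0.38 ± 0.05, adjusted p = 1.4e-05) and ATG2A (-0.21 ± 0.05, adjusted p = 0.0022). ATP6AP1 (-0.47 ± 0.14, adjusted p = 0.0096) was not called without the second JJN3 array (adjusted p = 0.055). CTSD, an aspartic protease, (-0.47 ± 0.15, adjusted p = 0.019) and ATG7 (0.23 ± 0.07, adjusted p = 0.017) were not called without the second array of either line, with adjusted p-values of 0.099 and 0.075 without that of JJN3 and of 0.065 and 0.082 without that of KMS12-BM. ATG9A was called without the second KMS12-BM array (-0.36, adjusted p = 0.031). The replicate numbers pair these 2 groups, and the block added ATG9A (-0.28, adjusted p = 0.026) and MAP1LC3B to the calls. After the quantile normalization 13 genes were higher in JJN3 and 12 lower. Among the 122 other pathway genes 42 were higher and 44 lower in JJN3, beside 18.9% and 22.3% of all genes. Of genes above the background reference 73.9% were called. Several of the pathway genes differed by far more than any of the 36. LGMN was higher by 7.47 ± 0.21, the membrane protein gene LAPTM4B by 6.62 ± 0.23 and the protease gene CTSO by 5.86 ± 0.10, while the GM2 activator gene GM2A was lower by 4.56 ± 0.16 and the fusion gene VPS33A by 2.27 ± 0.08.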

How the data were processed

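Per the submitters' processing notes, the authors made the deposited log2 expression values with RMA, for which no version is given, and the sources used here name no genome build. The deposited log2 values reach 19.84, above the 16 that a 16-bit scan allows, so a further transformation may have followed that is not stated, and a log2 change may not be a plain ratio of intensities. Array medians were 4.50 to 4.69, and the number of arrays limits the precision. The labels give total RNA, whereas the series text speaks of poly A+ RNA.

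Of 70523 probe sets, 23781 carry 1 gene symbol, 1543 several and 45199 are unlisted in the annotation used, and probe sets of the last 2 kinds stay unnamed. A gene with several probe sets, as 479 of the 22465 had, is represented by the brightest of them over all arrays. The background reference, 6.99, is the 95th percentile over 92 ERCC probe sets, whose median was 3.97. Groups follow the titles, and 0 columns belonged to no sample.

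The tests used limma 3.58.1 under R 4.3.3. A single fit of the 6 group means left 12 residual degrees of freedom, and 9 contrasts were read from it as two-sided p-values with Benjamini-Hochberg adjustment over all genes at 0.05. The model has no replicate block. Replicate numbers follow the order of the codes in the titles. With group means removed, every same-numbered couple of arrays had a correlation over 0.1 in 4 of the 15 possible pairs of groups. TG003 and DMSO were paired in this sense within both lines, as were the DMSO groups of the lines, whereas neither amiloride group passed this cutoff with its DMSO arrays. For amiloride and DMSO the correlations were 0.09, 0.23 and 0.11 in KMS12-BM and 0.17, 0.11 and -0.1 in JJN3. The members and the pathway lists were chosen with earlier results of these data known. All 36 members could be named, and up to 2 genes of each pathway list and direction with the largest called change, of which the text names some whose calls held under every alternative. Alternatives were a further quantile normalization, centring arrays on their medians, genes above the background reference only, the mean of a gene's probe sets, all probe sets, a trended robust prior, only the groups compared, the replicate block and leaving out each array. Leaving out an array assumes that its group varies like the others. The procedure was tested on simulated data. Promoter windows come from RefSeq.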

Additional observations from a re-analysis of the deposited data

Results flagged for a closer look

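The response to a drug differed between JJN3 and KMS12-BM, by an interaction term in limma with adjustment over all genes, for 17 results, each given as the log2 change in JJN3 minus that in KMS12-BM. For amiloride the difference was -2.15 for WIPI1, -1.30 for ATG14, -1.21 for UVRAG, -0.83 for MAP1LC3B, -0.73 for BECN1, -0.63 for LAMP1, -0.59 for NEU1, -0.47 for ULK1 and -0.37 for SQSTM1. It was 1.19 for ATP6V1A, 0.64 for ATG9A, 0.64 for MCOLN1, 0.61 for TPP1, 0.58 for GABARAPL1 and 0.45 for GLA. The amiloride dose was 0.4 mM in JJN3 and 0.1 mM in KMS12-BM, so line and dose cannot be told apart in these 15. For TG003, given at 0.4 mM to both lines, the difference was 1.08 for TPP1 and -0.81 for WIPI1. Line and serum cannot be told apart in any of the 17. In DMSO, JJN3 minus KMS12-BM was -2.53 for TPP1 and 1.75 for WIPI1. Groups of 3 arrays are too small for a search for single outlying arrays, and none was made.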

How the results depend on the processing

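Of 127 calls in 324 tests of the members, 84 held under every alternative in which the gene was tested, 43 were lost under at least 1, and 0 changed direction. The 7 members below the background reference in every group were not tested in the alternative over genes above it. With all probe sets tested 21 calls were lost, and 21 when only the groups compared were fitted. The quantile normalization lost 13, centring 9 and the trended robust prior 8. Losses given by gene above are mainly those on leaving out 1 array. In the following, counts are of members higher or lower. After the further quantile normalization, amiloride in KMS12-BM had 7 lower and a median of 0.19, the amiloride interaction a median of -0.13, the TG003 interaction 2 higher and a median of 0.09, and amiloride against TG003 in JJN3 4 higher, against 8, 7 lower, against 5, and a median of -0.01. For all genes, the share of calls that were higher stayed within 10 points of the main value in every scaling of the drug comparisons with DMSO. With arrays centred on their medians, TG003 in JJN3 had 2 higher and the TG003 interaction 0 lower. The setting of genes above the background reference holds only 29 of the 36 members, so its counts and medians cover fewer genes than the main values. In it, TG003 in KMS12-BM had 3 higher and 6 lower, against 4 and 4 over all genes. The medians were 0.46, against 0.32, and 0.19, against 0.12, for amiloride in KMS12-BM and JJN3. They were 0.41, against 0.20, and 0.12, against 0.04, for amiloride against TG003 in KMS12-BM and JJN3. The TG003 interaction had 2 higher in this setting. With all probe sets tested, TG003 in JJN3 had 1 higher and 1 lower, the amiloride interaction 3 higher, the TG003 interaction 0 lower and amiloride against TG003 in JJN3 5 higher. The trended robust prior left 2 higher for TG003 in JJN3. Fitting only the groups compared gave 1 lower for amiloride in JJN3, 1 higher and 6 lower for TG003 in KMS12-BM, 2 higher for TG003 in JJN3 and 2 higher for the TG003 interaction.

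Leaving out 1 array gave medians of 0.29 to 0.39 for amiloride in KMS12-BM, -0.04 to 0.07 for TG003 in KMS12-BM, 0.06 to 0.13 for TG003 in JJN3, -0.09 to -0.01 for the lines in DMSO, -0.26 to -0.18 for the amiloride interaction and 0.02 to 0.14 for amiloride against TG003 in JJN3. It gave 2 to 4 higher and 1 to 4 lower for TG003 in KMS12-BM, 1 to 5 higher and 1 to 2 lower for TG003 in JJN3, 3 to 5 higher for the amiloride interaction, 1 to 2 higher and 0 to 1 lower for the TG003 interaction, and 3 to 8 higher for amiloride against TG003 in JJN3. With the replicate block, members higher and lower were 5 and 5 for TG003 in KMS12-BM, 5 and 2 for TG003 in JJN3, 11 and 14 for the lines in DMSO, 19 and 4 for amiloride in KMS12-BM, 9 and 3 for amiloride in JJN3, and 5 and 11 for the amiloride interaction, against 6 and 9. It added ATP6V1A for amiloride in JJN3 (0.32, adjusted p = 0.028), and ATG12 (-0.46, adjusted p = 0.011) and ATG13 (-0.22, adjusted p = 0.026) in the amiloride interaction. Arrays correlated best with their own number for 15 of 18, a hint from the data. With the block LAMP2 in amiloride against TG003 in JJN3 (adjusted p = 0.053) and TPP1 in the amiloride interaction lost their calls, no other member call was lost, and the cause was not tested. Calls of genes below the background reference rest on dim signal.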
